A study of Cairina moschata with 9 samples.

Results

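In abdominal fat of Muscovy duck (Cairina moschata), 83 of the 14814 genes listed stood apart at 12 weeks of age, 15 of them above and 68 below their levels at both 35 and 66 weeks, while the means of the older ages lay close together. A gene was taken when its mean over the 9 libraries was at least 1 FPKM (fragments scaled by the length of the gene model and by the number of mapped fragments) and all its values were above 0. The larger of its 35-week and 66-week means had to be at most 25% above the smaller, its 12-week mean had to differ from both by at least 1.5-fold in the same direction, and its 3 values at 12 weeks had to lie beyond all 6 older values. The genes were thus chosen by their FPKM values in these same 9 libraries, so their levels, folds and separation are given as a description and were not tested as support.

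RNA of this fat depot was sequenced from 3 birds of each age, 1 library per bird, and per the series design text the birds were of normal body weight. No treatment, genotype or strain is named in the labels, and no source used here gives the sex of the birds. Each age carries its own lane code in the labels (3 at 12 weeks, 4 at 35 weeks, 5 at 66 weeks), so an effect of age and one of the lane cannot be told apart. The tissue could not be checked against its defining markers, because the files pair no identifier with a gene name and no table of names was used. For that reason the 2 genes with the largest ratio in each direction are given by identifier, the others by rank and level only, and none is given a role.

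Abdominal fat is a storage depot of poultry. Birds make most of their fatty acids in the liver, export them in lipoproteins and take them up in adipose tissue through lipoprotein lipase, and the depot is filled and drawn on as growth gives way to reproduction. It holds adipocytes, their precursors, vessels and immune cells, and in such bulk samples fewer cells of a type and less RNA per cell cannot be told apart.

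From 10814 to 11291 genes per library had at least 1 FPKM, and from 1693 to 2039 had a listed value of 0. The number of reads per library is not given, so the depth behind each value is unknown. The library of 12-week replicate 3 stood apart from its own age. Across 11491 genes, which are no independent replicates, Pearson's r on the log2(FPKM + 1) scale had a mean of 0.844 between it and the other 12-week libraries and of 0.862 between it and the 6 older ones, against 0.881 and 0.878 for 12-week replicate 1 and 0.872 and 0.863 for replicate 2. The sum of FPKM over all genes lay between 1214260 and 1467610 in the 12-week libraries and between 1503060 and 2145330 in the older ones.

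The genes lower at 12 weeks were the larger set. Their median ratio between the mean of the older ages and the 12-week mean was 1.92-fold, from 1.52 to 8.63, and 29 of the 68 differed by at least 2-fold. Their mean levels ran from 1.09 to 7618 FPKM with a median of 19.5, beside a median of 18 FPKM over the 10825 genes that met the same minimum level and were above 0 in every library. Of those 10825 genes, 3.4% had all 3 libraries of 12 weeks below the 6 older ones and 1.11% had them above. Since the rule asks for this separation, nothing is read from the fact that the chosen genes show it.

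ENSAPLG00000000754 had the largest ratio. It stood at 0.494, 0.550 and 0.513 FPKM in the 12-week birds, at 4.2, 5.92 and 4.72 FPKM at 35 weeks, and at 1.90, 1.34 and 8.82 FPKM at 66 weeks. The young birds were nearly equal and low, the 35-week birds were high, and the 66-week birds were spread, with replicates 1 and 2 between the young and the 35-week birds and replicate 3 above all others. The means were 0.519 ± 0.0287, 4.94 ± 0.884 and 4.02 ± 4.17 FPKM (SD, n = 3 each), a ratio of 8.63 between the older ages and 12 weeks. The closeness of the 2 older means that the rule asked for thus came from different values at the 2 ages.

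ENSAPLG00000004119 came next. Its 12-week values were 2.93, 3.37 and 11.8 FPKM, its 35-week values 15.4, 16.5 and 58.5 FPKM and its 66-week values 45.8, 18.6 and 19.8 FPKM. In each age 1 bird lay well above the other 2, and the highest young bird came within 1.30-fold of the lowest older one. The means were 6.04 ± 5.01, 30.1 ± 24.6 and 28 ± 15.4 FPKM (SD, n = 3 each).

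**Figure D1:**
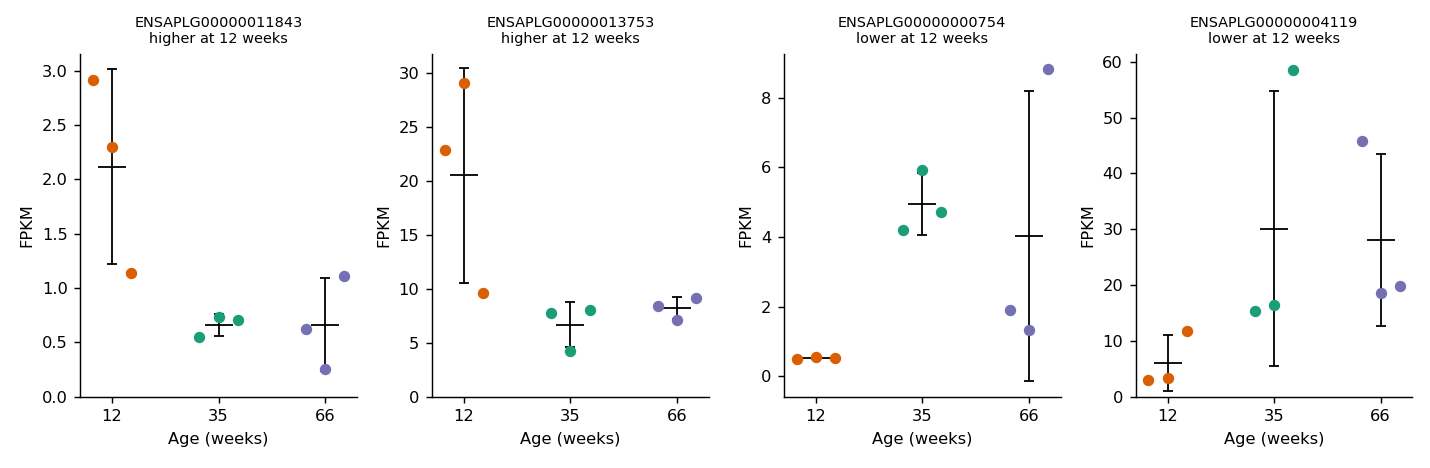
FPKM by age (weeks) in the 2 genes with the largest ratio in each direction; coloured points are the 3 birds of an age in the order of their replicate numbers, black bars the mean ± SD. In ENSAPLG00000000754 the 12-week birds stand at 0.494 to 0.550 FPKM while the 66-week birds run from 1.34 to 8.82 FPKM.

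Further down the order the separation was of different kinds. The gene of rank 4 by ratio showed the widest gap between birds of any of the 83: its 12-week values were 2.42, 1.35 and 2.02 FPKM, and its older values lay between 6.64 and 11.8 FPKM. The highest young bird was thus 2.75-fold below the lowest older one. After ENSAPLG00000000754, at 2.43-fold, the gene of rank 7 had the next widest gap, at 1.96-fold. It stood at 4.80, 4.64 and 6.24 FPKM in the young birds and 12.3 to 22.8 FPKM in the older ones. In the gene of rank 9 the young birds differed among themselves: 12-week replicate 1 stood at 26.7 FPKM, replicate 2 at 62.4 and replicate 3 at 94.5, against 142 to 227 FPKM in the older birds. In the gene of rank 12, 12-week replicate 1 lay at 0.836 FPKM while replicates 2 and 3 lay at 4.90 and 3.59, the largest range among young birds in the set at 5.86-fold.

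The young birds were nearly uniform in other genes of the set. The gene of rank 16 stood at 22.4, 23.6 and 21.6 FPKM at 12 weeks and between 37.8 and 75.5 FPKM in the older birds. The gene of rank 18 stood at 21.6, 21.0 and 19.8 FPKM and then between 33.4 and 86.1 FPKM. In these genes the older birds carried most of the spread. Over the 68 genes, the highest young bird lay at least 2-fold above the lowest in 18, and the highest older bird at least 2-fold above the lowest in 17. The first range is over 3 birds and the second over 6, and a range grows with the number of birds, so these counts do not compare the spreads. The SD on the log2 scale was largest at 12 weeks in 37 of the 68 (54.4%) and smallest there in 18 (26.5%), beside 48.9% and 22% of all 10825 genes.

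**Figure D2:**
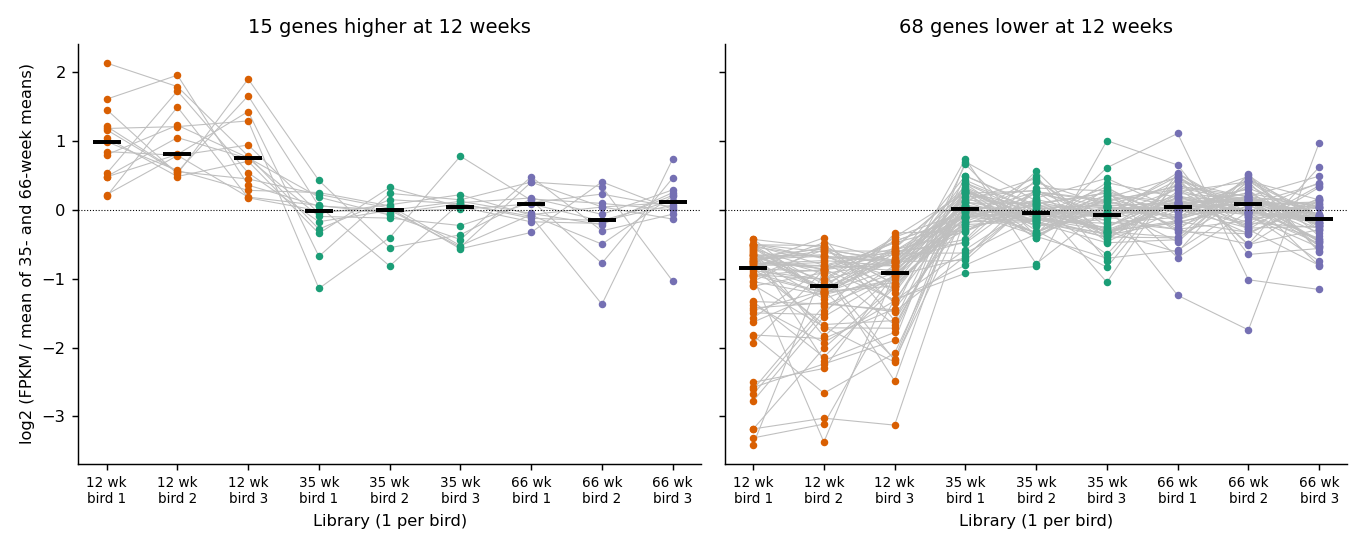
log2 ratio of each gene's FPKM in a library to the mean of its 35-week and 66-week means, for the 15 genes higher (left) and the 68 genes lower (right) at 12 weeks; points are genes coloured by age, thin lines join the values of 1 gene, and black bars are the median of the genes. The medians of the 12-week libraries lie between 0.75 and 1.00 on the left and between -1.10 and -0.84 on the right, and single genes come close to the older birds on both sides.

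Taken by library, the median log2 ratio of the 68 genes to the mean of the older ages was -0.84 in 12-week replicate 1, -1.10 in replicate 2 and -0.92 in replicate 3. It lay between -0.07 and 0.01 in the 35-week libraries and between -0.14 and 0.09 in the 66-week ones. Over all 10825 genes the same medians lay between -0.09 and -0.02 at 12 weeks. Replicate 2 was therefore the lowest of the young birds over the set, and it held the lowest value in 30 of the 68 genes (44.1%), beside 33.3% of all genes. The young bird nearest to the older ones, which is the highest of the 3, was replicate 3 in 27 genes (39.7%), replicate 1 in 25 (36.8%) and replicate 2 in 16 (23.5%). Over all 10825 genes the highest young bird was replicate 3 in 45.7%, replicate 1 in 26.1% and replicate 2 in 28.2%. Of the older birds, 35-week replicate 3 was the lowest in 18 genes and 66-week replicate 3 in 16. The 66-week mean was above the 35-week mean in 40 genes (58.8%) and below it in 28, beside 52.7% above over all 10825 genes.

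Many of the 68 genes cleared the condition of non-overlap by a small margin. The median fold between the highest young and the lowest older bird was 1.21. The lowest older bird was less than 5% above the highest young one in 11 genes and less than 10% above it in 17, at least 1.5-fold above it in 9 and at least 2-fold in 2. In the narrowest case, the gene of rank 57, 12-week replicate 3 and 66-week replicate 3 both stood at 51.9 FPKM, a fold of 1.00 between them. Just outside the set, a gene at 6.17, 7.28 and 11.01 FPKM in the young birds failed because 35-week replicate 2, at 10.97 FPKM, fell just below the highest young bird. It was 1 of 106 genes kept out by overlap alone. The condition of at least 1.5-fold alone kept out 197 genes, the nearest of them at 1.496-fold against 1.504-fold for the last one taken. The limit of 25% between the older ages alone kept out 60, the nearest at 1.255-fold, while the widest taken had 1.247-fold. The minimum of 1 FPKM alone kept out 6, the nearest with a mean of 0.979 FPKM, and values of 0 alone kept out 5.

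**Figure D3:**
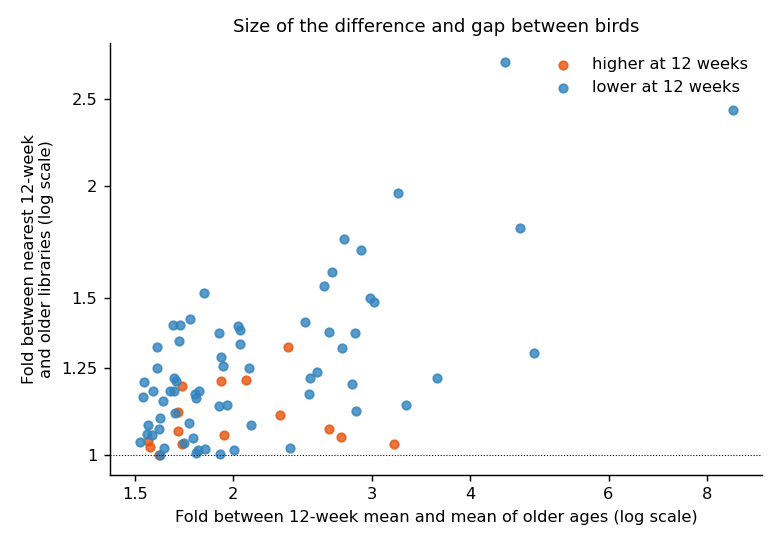
For each of the 83 genes, the fold between the 12-week mean and the mean of the older ages (horizontal, log scale) and the fold between the nearest 12-week and older birds (vertical, log scale; 1 marks touching values); colours give the direction. The 15 genes higher at 12 weeks reach a gap of 1.32 at most, and 2 of the 68 lower genes exceed a gap of 2.

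By level, the lower genes fell in every class used here. Of the 68, 15 lay at 1 to 5 FPKM, 12 at 5 to 10, 14 at 10 to 30 and 15 at 30 to 100. A further 7 lay at 100 to 1000 and 5 at 1000 FPKM or more. The class of 1000 FPKM or more held 7.35% of the 68 and 1.39% of the 10825 genes. The gene with the highest level, rank 53 by ratio, stood at 5267, 4859 and 5641 FPKM at 12 weeks, 8166, 7877 and 9006 FPKM at 35 weeks and 8839, 9368 and 9541 FPKM at 66 weeks. Its birds were alike within each age, with means of 5256 ± 391, 8350 ± 587 and 9249 ± 365 FPKM (SD, n = 3 each). The next by level stood at 4523, 3706 and 4120 FPKM in the young birds and between 6073 and 9878 FPKM in the older ones. The gene of rank 11 by ratio, at 832, 570 and 868 FPKM in the young birds, was spread from 973 to 4685 FPKM in the older ones.

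These 5 genes did not move against their class. Of all 151 genes at 1000 FPKM or more, 88.7% had a lower mean at 12 weeks than over the older ages, with a median log2 ratio of -0.46, and in 15.9% the young birds lay below all older ones. In the classes below 1000 FPKM the median log2 ratio lay between -0.06 and -0.01. FPKM is scaled by the length of the gene model, and a short model can reach a high value from few fragments. After quantile normalization, which gives all libraries the same distribution of values, 0 of the 5 still met the rule, while 4 of the 5 did after median-ratio scaling. What part the shift of the class or the length of the gene models has in these 5 genes was not tested.

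The genes higher at 12 weeks were fewer and less cleanly separated. Their median fold over the mean of the older ages was 1.93, from 1.56 to 3.20, and 6 of the 15 reached 2-fold. Their mean levels ran from 1.15 to 225 FPKM, with a median of 11.3, and none reached 1000 FPKM. The widest gap between the lowest young and the highest older bird was 1.32-fold, and the median gap was 1.06-fold.

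ENSAPLG00000011843 led them. It stood at 2.91, 2.30 and 1.14 FPKM at 12 weeks, at 0.546, 0.736 and 0.705 FPKM at 35 weeks and at 0.622, 0.256 and 1.11 FPKM at 66 weeks. Replicates 1 and 2 of the young birds were high, while replicate 3 lay within 1.03-fold of 66-week replicate 3. The means were 2.12 ± 0.899, 0.662 ± 0.101 and 0.662 ± 0.427 FPKM (SD, n = 3 each). With a mean of 1.15 FPKM over the 9 libraries, it was also the gene nearest to the minimum level.

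In ENSAPLG00000013753 replicate 3 was likewise the lowest young bird, while replicate 2 was the highest. It stood at 22.8, 29.1 and 9.59 FPKM at 12 weeks, between 4.25 and 8.04 FPKM at 35 weeks and between 7.15 and 9.15 FPKM at 66 weeks. Replicate 3 lay next to the older birds, within 1.049-fold of the highest. The means were 20.5 ± 9.94, 6.69 ± 2.12 and 8.25 ± 1.01 FPKM (SD, n = 3 each).

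Replicate 3 was not the lowest young bird throughout. In the gene of rank 3 it was the highest, at 10.99 FPKM beside 8.08 and 4.23 in replicates 1 and 2, and the older birds lay between 2.01 and 3.95 FPKM. In the gene of rank 7, which had the highest level of the 15, it was again the highest, at 462 FPKM beside 239 and 300, with the older birds between 83.7 and 227 FPKM. In the gene of rank 12 replicate 2 alone was high: it stood at 125 FPKM, while replicates 1 and 3 at 51.05 and 50.3 lay just above the older birds, which ran from 39.7 to 47.3 FPKM. The gene of rank 4 was the one with nearly equal young birds, at 28.03, 28.6 and 30.2 FPKM, and with older birds from 5.59 to 21.2 FPKM. Over the 15 genes each young bird was the highest in 5, and the lowest was replicate 3 in 7, replicate 1 in 5 and replicate 2 in 3. Over all 10825 genes replicate 3 was the highest young bird in 45.7% and the lowest in 34%, beside 33.3% and 46.7% here.

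Of the genes that failed a single condition in this direction, 51 failed by overlap, 87 by the fold, 15 by the distance between the older means, 5 by level and 3 by a value of 0. The last gene inside by fold, at 1.51, was also the last inside by the gap: 12-week replicate 1 stood at 9.55 FPKM and 35-week replicate 3 at 9.54. The nearest outside by fold had 1.46, and the nearest outside by overlap had 12-week replicate 2 at 10.05 FPKM beside 66-week replicate 1 at 10.09. The nearest outside by the distance between the older means had 1.253-fold against 1.233-fold for the widest taken, and the nearest by level had a mean of 0.380 FPKM.

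The rule was also applied with 1 of the young birds left out, and that bird was then read in the genes chosen without it. The 6 older libraries still took part in the choice. A left-out bird would therefore lie on the chosen side more often than in all genes even if the ages did not differ, so its values are a description and no outside check. The 2 birds used had to meet the rule and the left-out bird did not, which alone tends to make its ratio smaller in size. Without 12-week replicates 1, 2 and 3 in turn, 120, 96 and 146 genes were chosen as lower. The median log2 ratio of the left-out bird to the mean of the older ages was -0.62, -0.75 and -0.42 in these genes, smaller in size than the -0.94, -0.91 and -0.89 of the 2 birds used. In the higher direction 36, 22 and 62 genes were chosen. The median log2 ratio was 0.22 for replicate 1 and 0.34 for replicate 2, beside 0.84 and 1.03 in the birds used. For replicate 3 it was -0.24, beside 0.93 in replicates 1 and 2. Replicate 3 lay above the mean of the older ages in 24 of the 62 genes (38.7%), beside 47.8% of all 10849 genes that met the level conditions without it. The library that stood apart from its age over all genes was thus below the older mean in most genes that the other young birds set high. It was also below that mean in 52.2% of all genes. Replicates 1 and 2 lay above the older mean in 61.1% and 72.7% of the higher genes chosen without each, beside 39.1% and 40.5% of all genes. In the lower genes, replicates 1, 2 and 3 lay below it in 88.3%, 90.6% and 78.1%, beside 60.9%, 59.5% and 52.2% of all genes.

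Which genes belonged to the set also depended on single libraries. Of the 68 lower genes, 19 were chosen again in every one of the 9 choices without 1 library, and 16 of these also after median-ratio scaling and after quantile normalization. Of the 15 higher genes, 1 was chosen again in all 9 choices, and 0 also after both scalings. ENSAPLG00000000754 was chosen again in 6 of the 9, ENSAPLG00000004119 in 5, and ENSAPLG00000011843 and ENSAPLG00000013753 in 6 each. The 16 genes held ranks from 8 to 61 by ratio. The genes at the very top of the order were thus absent, while those of ranks 8, 9 and 10 were among the 16. Leaving out a library cannot narrow the gap between young and older birds, so being chosen again does not measure that gap. ENSAPLG00000000754, ENSAPLG00000004119 and the gene of rank 4, which had the widest gap, were lost only without a 35-week or 66-week library. The gene of rank 29, with a gap of 1.01-fold, was among the 16. The first of the 16 stood at 1.26, 0.826 and 0.579 FPKM in the young birds and between 1.87 and 3.36 FPKM in the older ones. The rank 35 gene, the one with the highest level among the 16, stood at 417, 281 and 310 FPKM in the young birds and between 572 and 749 FPKM in the older ones. The rank 61 gene had the tightest older birds of the 68, at 19.2 to 21.1 FPKM against 11.2, 14.5 and 12.1 FPKM.

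None of the 83 genes passed a test across all genes. In a limma fit of log2(FPKM + 1) over 11491 genes, comparing 12 weeks with the mean of 35 and 66 weeks, 0 genes (0%) were called higher and 2 (0.0174%) lower at an adjusted p below 0.05, and 0 of the 15 and 0 of the 68 were among them. A limma fit of the 10825 genes above 0 in every library, the only ones the rule could take, called 0 in either direction. At an unadjusted p below 0.05 limma gave 300 genes (2.61%) higher and 887 (7.72%) lower, among them 14 of the 15 and 66 of the 68, shares that follow from the rule and are read as nothing more. The lean to lower genes was smaller after rescaling. At that threshold limma gave 445 higher and 740 lower after median-ratio scaling, and 567 and 650 after quantile normalization. In the main fit the median log2 fold change was 0.75 in the 15 and -0.82 in the 68, beside -0.02 over all genes tested. On the log2(FPKM + 1) scale it is too small for genes of low level. Without 12-week replicate 3, limma called 4 genes higher and 12 lower, with 0 of the 15 and 1 of the 68 among them. A fit with library weights called 4 and 22, with 0 and 4.

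The same rule set fewer genes apart at 12 weeks than at either other age. With the ages exchanged, 35 weeks had 112 genes above and 67 below the other ages, and 66 weeks had 192 above and 199 below, in all 179 and 391 beside the 83 at 12 weeks. The lower genes were the larger set by far at 12 weeks, with 68 against 15, and the smaller one at 35 weeks. Before separation is asked for, the older means lay within 25% of each other, by that limit, in 49.4% of the 10825 genes. The 12-week and 66-week means did so in 56.7%, and the 12-week and 35-week means in 62.4%. The libraries of the age set apart lay above all others in 1.11% of the genes at 12 weeks, 4.2% at 35 weeks and 7.29% at 66 weeks, and below all others in 3.4%, 3.44% and 6.70%. Of the genes above all others, 25% at 12 weeks, 58.0% at 35 weeks and 41.4% at 66 weeks also met the 1.5-fold condition. Of those below all others, 34.8%, 30.1% and 59.9% did. The spread between birds was larger at 12 weeks, with a median SD on the log2 scale of 0.30 beside 0.23 at each older age. Without 12-week replicate 3 the counts at 12 weeks were 62 higher and 146 lower. They were 36 and 120 without replicate 1, and 22 and 96 without replicate 2. Leaving out a young library loosens the condition of non-overlap, and the counts at the other ages rest on all libraries. The difference between the ages was not tested.

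**Figure D4:**
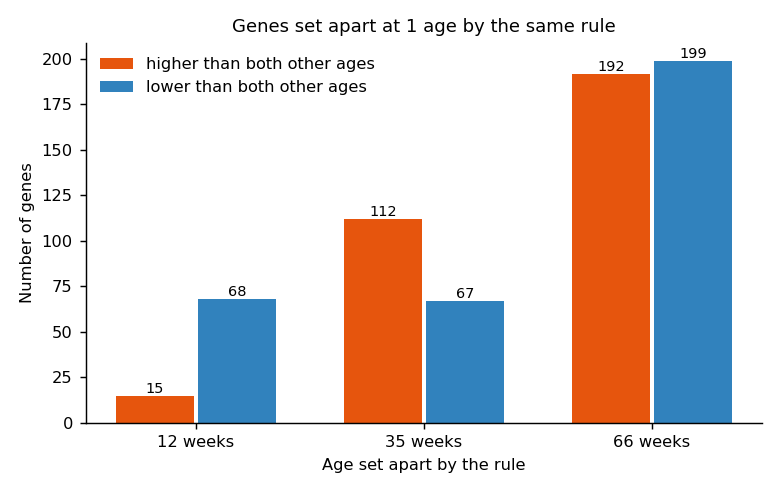
Number of genes set apart at each age by the same rule, above (orange) or below (blue) the other ages. The 12-week age has 15 higher and 68 lower genes, fewer in all than 35 weeks (112 and 67) or 66 weeks (192 and 199).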

How the data were processed

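The authors deposited 1 table of FPKM values, 1 column per library, per the file headers. TopHat2 2.0.9, Cufflinks 2.1.1 and Cuffdiff are named in the submitters' processing notes, without their roles. No source used here states the genome build, the annotation or any further scaling. Each identifier printed above starts with ENSAPLG. Which species these gene models belong to was not checked, and they may not be those of Muscovy duck. What mapping to another species would do to the levels and to the values of 0 was not tested. A column kit was used for total RNA, per the labels' protocols. Libraries were grouped by the titles, and no 2 held identical values.

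The rule was applied to the deposited values. limma 3.58.1 in R 4.3.3 was fitted to log2(FPKM + 1) of genes whose mean was 1 FPKM or more, with 3 age means and an intensity trend. The contrast was 12 weeks against the mean of 35 and 66 weeks, two-sided, with Benjamini-Hochberg adjustment. The fit was also run on simulated data with independent noise, whose outcome is not given here, so nothing is read from it. Other computations used Python 3.11.15, numpy 2.4.6, pandas 2.3.3 and matplotlib 3.10.9. The p-values weigh the difference between the ages against the spread between libraries of the same age. Each age has its own lane code, so that spread holds no difference between lanes.

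The members and lists were chosen with earlier results of these data known. Genes were named by rank of the log2 ratio of the 12-week mean to the mean of the other means. The gene lists and cell type markers could not be matched to identifiers and were not used. Genes described by rank and level beyond the named 4 were picked after their values were seen, and the reading of left-out birds was added after seeing the data. The alternatives tried are given in the closing section.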

Additional observations from a re-analysis of the deposited data

How the results depend on the processing

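Counts of 15 genes higher and 68 lower at 12 weeks became 44 and 162 with a difference of at least 25% in place of 1.5-fold, and 6 and 24 with 2-fold. They became 9 and 39 with the older means within 1.1-fold, and 23 higher within 1.5-fold. Quantile normalization gave 21 and 50 (29.6% higher, against 18.1%), of which 8 and 42 were among the original genes. Median-ratio scaling gave 17 and 54. Without 1 library at a time, the counts ran from 17 to 62 higher and from 65 to 146 lower. Both highest values came without 12-week replicate 3. Leaving out any library, young or older, loosens the condition of non-overlap and also changes the means that the other limits use. Other changes beyond 1.5 times were 36 higher and 120 lower without 12-week replicate 1, 26 and 107 without 35-week replicate 3, and 25 and 23 higher without 66-week replicates 1 and 3.

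With limma, 0 genes called higher over all genes became 1 with no filter, 2 with quantile normalization and 4 with library weights. The 2 called lower became 1 with a pseudocount of 0.1 or 0.01 or a mean of at least 5 FPKM, 0 with genes above 0 in all libraries, and 22 with library weights. A block for the replicate number left 1. Libraries of the same replicate number showed no consistent pairing: correlations of deviations ran from -0.0939 to 0.215 over 9 pairs, with 2 above 0.1. Libraries of unlike number were not compared, so these values do not show how the birds were numbered. Without 1 library, limma called 0 to 4 higher and 1 to 12 lower. Of the 68 genes, 4 were called with library weights and 0 to 1 without 1 library. Of the 15, 0 were called in any alternative. The cause of these changes was not tested. Depth is unknown, so no floor could be set for low values.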

Other observations

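Genes listed at 0 at 1 side could not enter the rule. In 8 genes all 3 libraries of 12 weeks were listed at 0 and all 6 older ones were above 0, with a mean of up to 6.59 FPKM over the older libraries and a median of 1.15. In 2 genes the 12-week libraries were above 0 and all older ones listed at 0, with a mean of at most 0.146 FPKM at 12 weeks. No fold is given against a group listed at 0, and a value of 0 can be a failed estimate.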
